A study of Mus musculus with 19 samples.

Results

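The 10 coinhibitory receptor genes described here are listed in the deposited count table under the symbols CTLA4, LAG3, TIGIT, HAVCR2, KLRG1, CD160, BTLA, CD200, CD96 and CD5. They were chosen by name, as surface molecules of T cells known as inhibitory receptors or checkpoints, and all 10 were found among the 24982 genes of the table. Of these genes, 11464 had enough counts to be tested, and all 10 receptor genes were among them. The data are bulk RNA-seq counts of CD4+FoxP3-GFP+ regulatory T cells (Tregs) that were sorted by FACS into CD44high and CD44low cells from the axillary, brachial and inguinal lymph nodes that drain the injury site. CD44 is an adhesion molecule that effector and memory T cells carry at high density. All mice were of the Foxp3DTR strain, aged 8 to 16 weeks, in which the Foxp3 locus drives a receptor for diphtheria toxin and GFP, so controls carry this allele too. Injured mice had been burned over 20% of the body surface in water of 90 °C for 9 seconds and were studied 7 days later. Uninjured mice had a sham treatment in water at room temperature. There were 4 CD44high and 5 CD44low samples from uninjured mice, and 4 CD44high and 6 CD44low samples from injured mice, each with RNA from 50000 cells. Of the 6 CD44low samples of injured mice, 3 carry a second number (1_2, 4_2 and 5_2), which no source used here explains. The labels do not say whether samples came from separate mice, so p-values measure the spread between these samples, which may be technical. Library totals ranged from 5582234 to 9433610 counts. Levels are given as CPM, which are counts scaled to a common library total after TMM normalization.

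Coinhibitory receptors sit on the T cell surface and dampen activation when they meet their ligands on other cells. CD200 is listed with them although it acts as a ligand, which signals to the receptor CD200R1. CTLA4 competes with the costimulatory receptor CD28 for the ligands CD80 and CD86, and TIGIT and CD96 compete with CD226 for ligands of the nectin family. On Tregs several of these receptors, CTLA4 foremost, also serve the suppression of other cells, and their density is known to be higher on activated than on resting Tregs.

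By the GENCODE vM21 annotation (build GRCm38), 4 of the 10 genes lie within 2.47 Mb of chromosome 16. These are Tigit (chr16:43648867-43664146), Btla (chr16:45224315-45257670), Cd200 (chr16:45382135-45409053) and Cd96 (chr16:46035657-46120251). Lag3 (chr6:124904361-124911705) and Klrg1 (chr6:122270596-122282882) lie within 2.64 Mb of chromosome 6. The others are Ctla4 (chr1:60887000-60915832), Havcr2 (chr11:46454935-46481255), Cd160 (chr3:96798763-96829351) and Cd5 (chr19:10717116-10739002). The submitters' processing notes name both mm9 and mm10 without saying which served for the counts, and positions are used here for orientation only. RefSeq promoter sequences (build GRCm38.p6) were at hand for 8 of the 10 genes. The 250 bases before each start were searched on both strands for the letters of 4 motifs of T cell transcription factors, which were AP-1 (TGANTCA), NFAT (TGGAAA), forkhead (TGTTTNC) and RUNX (TGTGGT). Among 32851 promoters of the same length, 6.75% held the AP-1 letters, 18.6% the NFAT letters, 17.8% the forkhead letters and 14% the RUNX letters. RUNX letters were found for Tigit, Havcr2, Cd160, Btla and Cd96. NFAT letters were found for Ctla4 and Cd96, AP-1 letters for Havcr2 and forkhead letters for Tigit. Shown are the 120 bases before the start of 4 genes with large differences between the Treg subsets, Tigit and Havcr2 being higher in CD44high Tregs and Cd96 and Cd160 in CD44low Tregs of uninjured mice. They are Tigit at chr16:43664185-43664304 (minus strand), Havcr2 at chr11:46454811-46454930 (plus strand), Cd96 at chr16:46120249-46120368 (minus strand) and Cd160, at the first of 2 listed starts, at chr3:96829352-96829471 (minus strand). Each is written 5′ to 3′ on the strand of the gene, and capitals mark matches to any of the 4 motifs.
Tigit: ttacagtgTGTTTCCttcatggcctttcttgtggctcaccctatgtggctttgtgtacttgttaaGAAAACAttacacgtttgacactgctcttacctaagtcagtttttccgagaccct
Havcr2: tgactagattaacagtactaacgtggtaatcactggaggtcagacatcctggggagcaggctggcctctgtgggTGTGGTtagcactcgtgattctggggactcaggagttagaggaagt
Cd96: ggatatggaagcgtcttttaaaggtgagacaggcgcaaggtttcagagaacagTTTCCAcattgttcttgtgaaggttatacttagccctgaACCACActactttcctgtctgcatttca
Cd160: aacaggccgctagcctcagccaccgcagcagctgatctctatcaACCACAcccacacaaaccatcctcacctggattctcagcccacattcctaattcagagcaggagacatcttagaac
The capitals are 2 forkhead matches in Tigit, 1 RUNX match in Havcr2, 1 NFAT and 1 RUNX match in Cd96, and 1 RUNX match in Cd160. The RUNX letters thus stood before genes of both directions. A match is a description of the letters and not of binding, which was not measured here.

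The sort was checked on its own genes. Cd44 stood at 595 ± 37.5 CPM (SD, n = 4) in CD44high and 133 ± 16.1 CPM (SD, n = 5) in CD44low Tregs of uninjured mice, and at 436 ± 54.6 (SD, n = 4) and 117 ± 18.2 CPM (SD, n = 6) in injured mice. Cd3e, a chain of the T cell receptor complex, had group means between 1371 and 1463 CPM. Foxp3, the factor that defines Tregs, had between 47.7 and 181 CPM in the 19 libraries. All these libraries thus carried the defining transcripts of the sorted cells. Markers of other cells were present as well. The 10 macrophage and dendritic cell markers (most abundant Lyz2, lysozyme) summed to 175, 99.7, 105 and 149 CPM in the CD44high and 29.1, 35.8, 41.7, 25.4 and 20.6 CPM in the CD44low libraries of uninjured mice. In injured mice they summed to 142, 118, 157 and 259 CPM in CD44high libraries and to between 34.6 and 159 CPM in CD44low libraries, the highest being library 5. All 10 of these markers were higher in CD44high Tregs of uninjured mice, from 1.56 (Csf1r) to 4.90 (Itgam) on the log2 scale. None was at 0 in every library of a group. The 6 B cell markers (most abundant Cd79b) summed to between 79.5 and 279.8 CPM, and 1 of them, Cd79b, was higher in CD44high Tregs of uninjured mice (0.84). The 8 markers of CD8 T and NK cells (most abundant Nkg7) summed to between 103 and 193 CPM, and 2 of the 7 tested, Nkg7 and Klrb1c, were higher in CD44high Tregs of uninjured mice (1.24 and 3.63). Of the gamma delta T cell markers 1, Sox13, was analysed, and its highest library had 0.998 CPM. In bulk RNA, fewer cells that express a gene and less RNA per cell cannot be told apart.

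Divided by the joint length of all annotated exons of the gene, levels can be compared roughly between genes. Which transcripts the cells expressed was not determined, so the order depends in part on the annotation. In CD44high Tregs of uninjured mice Ctla4 led with 451 ± 32 CPM per kb (SD, n = 4). Klrg1 (227 ± 49.4 CPM per kb) and Cd5 (203 ± 9.53 CPM per kb) followed with overlapping libraries, and then came Tigit (141 ± 12 CPM per kb) and Cd96 (103 ± 6.4 CPM per kb). Btla (36.2 ± 3.72 CPM per kb), Havcr2 (27 ± 2.38 CPM per kb) and Cd200 (25.7 ± 3.57 CPM per kb) formed a middle group. Cd160 and Lag3 were lowest, at 1.98 ± 0.487 and 1.81 ± 0.459 CPM per kb, with overlapping libraries. The order in CD44low Tregs of uninjured mice was another one. Cd96 led with 215 ± 16.3 CPM per kb (SD, n = 5), before Cd5 (179.9 ± 4.17 CPM per kb) and Ctla4 (90.4 ± 11.4 CPM per kb). Klrg1 (1.6 ± 1.25 CPM per kb), Lag3 (0.493 ± 0.201 CPM per kb) and Havcr2 (0.179 ± 0.262 CPM per kb) stood at the end, each overlapping the next. In injured mice Ctla4 led in CD44high Tregs with 557 ± 71.4 CPM per kb (SD, n = 4). In CD44low Tregs of injured mice Cd96 (202 ± 21.8 CPM per kb, SD, n = 6), Cd5 (165 ± 17.8 CPM per kb) and Ctla4 (150.3 ± 25.6 CPM per kb) led, Cd96 overlapping Cd5 and Cd5 overlapping Ctla4.

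**Figure D1:**
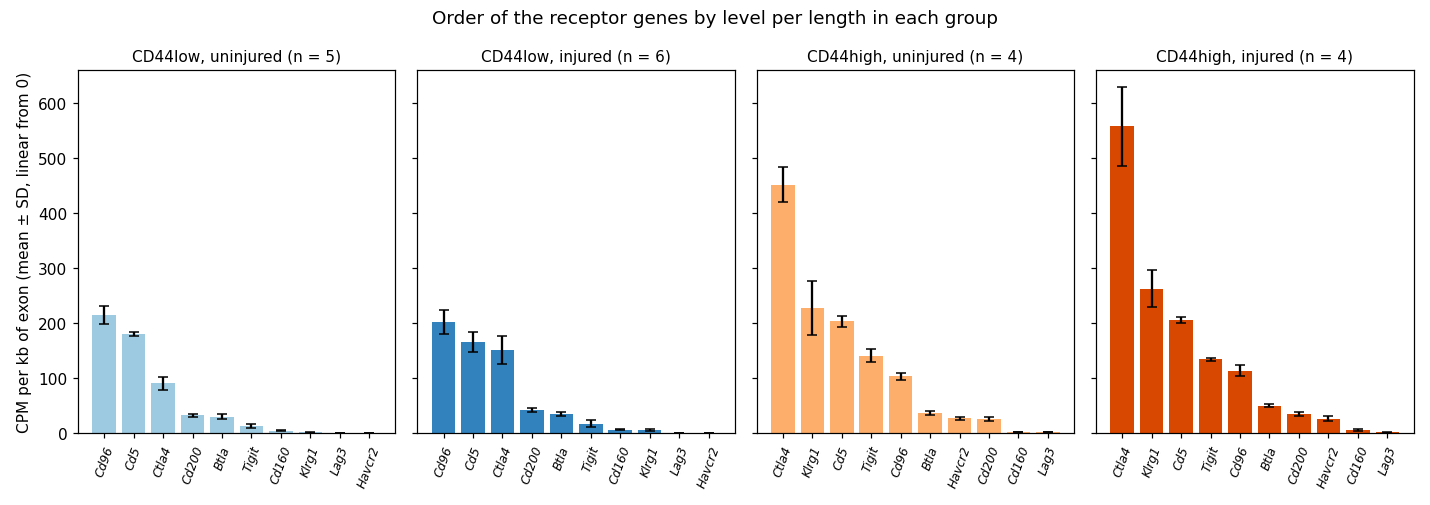
Bars show the mean level of each coinhibitory receptor gene in CPM per kb of exon on a linear axis from 0, with SD as error bars, ordered from high to low within each of the 4 groups. Ctla4 heads both CD44high panels and Cd96 both CD44low panels.

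The first question was how CD44high and CD44low Tregs of uninjured mice differ. Ctla4, Lag3, Tigit, Havcr2 and Klrg1 were higher in CD44high Tregs, Cd96, Cd160 and Cd200 were lower, and Btla and Cd5 were not called. The 5 higher genes stand beside 24.7% of all genes tested that were called higher (edgeR's quasi-likelihood test, adjusted p under 0.05), and the 3 lower genes beside 21.3% called lower. The subsets' libraries did not overlap for 8 of the 10 genes, and for 40.7% of all genes tested. The median log2 fold change was 1.07 over the 10 genes and 0.01 over all genes tested.

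Ctla4, whose product removes CD80 and CD86 from antigen-presenting cells, had 1154, 1029, 1046 and 976 CPM in CD44high libraries of uninjured mice. The 5 CD44low libraries had 183, 246, 225, 212 and 187 CPM, so every CD44high library lay above every CD44low library. The log2 fold change was 2.32 ± 0.13 (SE), a 4.99-fold difference (edgeR adjusted p = 4.66e-13). Tigit, a receptor for nectin family ligands, had 142, 119.7, 121 and 135 CPM in CD44high and 16.4, 11, 9.65, 7.33 and 11.1 CPM in CD44low libraries. These groups were far apart as well, with a log2 fold change of 3.54 ± 0.20 (SE, edgeR adjusted p = 1.25e-12).

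Havcr2, which encodes TIM-3, and Klrg1, a lectin-like receptor for cadherins, differed most. Havcr2 had 76.5, 63.9, 76.6 and 77.4 CPM in the CD44high libraries of uninjured mice. In the CD44low libraries it had 0, 1.58, 0, 0.862 and 0 CPM, from 16 counts in all, and a count of 0 there allows up to 0.426 to 0.506 CPM (3 counts, counting error only). Its presence was thus near the counting limit in CD44low Tregs, and the log2 fold change of 7.18 ± 0.47 (SE, edgeR adjusted p = 1.09e-11) rests on these few counts. It was 8.22 without CD44low library 2, which held 10 of them. Klrg1 had 425, 285, 300.2 and 276 CPM in CD44high and 0.938, 5.2, 0.852, 2.44 and 1.86 CPM in CD44low libraries, from 73 counts in the latter. Its log2 fold change was 7.15 ± 0.32 (SE), a 142-fold difference (edgeR adjusted p = 1.36e-14). Myeloid cells are known to express TIM-3 and NK cells KLRG1, and all 10 markers of myeloid cells and 2 of 7 of CD8 T and NK cells were called higher in the CD44high libraries. The part of such cells in these values was not tested.

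Lag3, a relative of CD4 that binds MHC class II, was scarce throughout, with 2.67, 3.73, 3.84 and 5.04 CPM in CD44high and 1.72, 0.63, 0.852, 1.15 and 0.844 CPM in CD44low libraries. These values stand for 101 and 34 counts in all. The groups did not overlap, and the log2 fold change was 1.87 ± 0.45 (SE, edgeR adjusted p = 0.00151).

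Cd96, which shares ligands with TIGIT, went the other way. It had 228, 205, 227 and 238 CPM in CD44high and 416, 469, 457, 508 and 493 CPM in CD44low libraries. The groups did not overlap, and the log2 fold change was -1.06 ± 0.10 (SE, edgeR adjusted p = 5.67e-09). TIGIT and CD96 thus differed in opposite directions between the subsets, although both are receptors for the same ligand family. Cd160, a receptor for the ligand TNFRSF14 that BTLA also binds, had 6.06, 3.39, 6.17 and 5.28 CPM in CD44high and 12, 12.6, 7.81, 13.1 and 9.45 CPM in CD44low libraries, again without overlap, and a log2 fold change of -1.07 ± 0.22 (SE, edgeR adjusted p = 0.000423). Cd200, a surface glycoprotein that signals to the receptor CD200R1, had 75.8, 75.6, 89.2 and 100.2 CPM in CD44high and 122, 101, 107, 110.1 and 99.9 CPM in CD44low libraries. The 2 groups touched at the highest CD44high and the lowest CD44low library, and the log2 fold change was -0.34 ± 0.11 (SE, edgeR adjusted p = 0.0152). Follicular T cells are among the known carriers of CD200. Of their 4 tested markers, 1 was called higher and 2 lower in CD44high Tregs, and the part of such cells was not tested.

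Btla and Cd5, a scavenger receptor that tempers signals of the T cell receptor, differed least. Btla had 135, 130.4, 106 and 119.8 CPM in CD44high and 114, 122, 88, 87 and 94.5 CPM in CD44low libraries, with overlap, and a log2 fold change of 0.28 ± 0.12 (SE, edgeR adjusted p = 0.0565). Its 95% interval ran from 0.04 to 0.52, and the call was made under 4 of 8 alternatives other than leaving out 1 library, among them DESeq2 (adjusted p = 0.0446). Cd5 had 1055, 1015, 943 and 986 CPM in CD44high and 876, 908, 884, 859 and 905 CPM in CD44low libraries. The Cd5 groups did not overlap, yet the log2 fold change of 0.17 ± 0.08 (SE) was not called (edgeR adjusted p = 0.0937, 0.0269 with the compared groups alone).

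**Figure D2:**
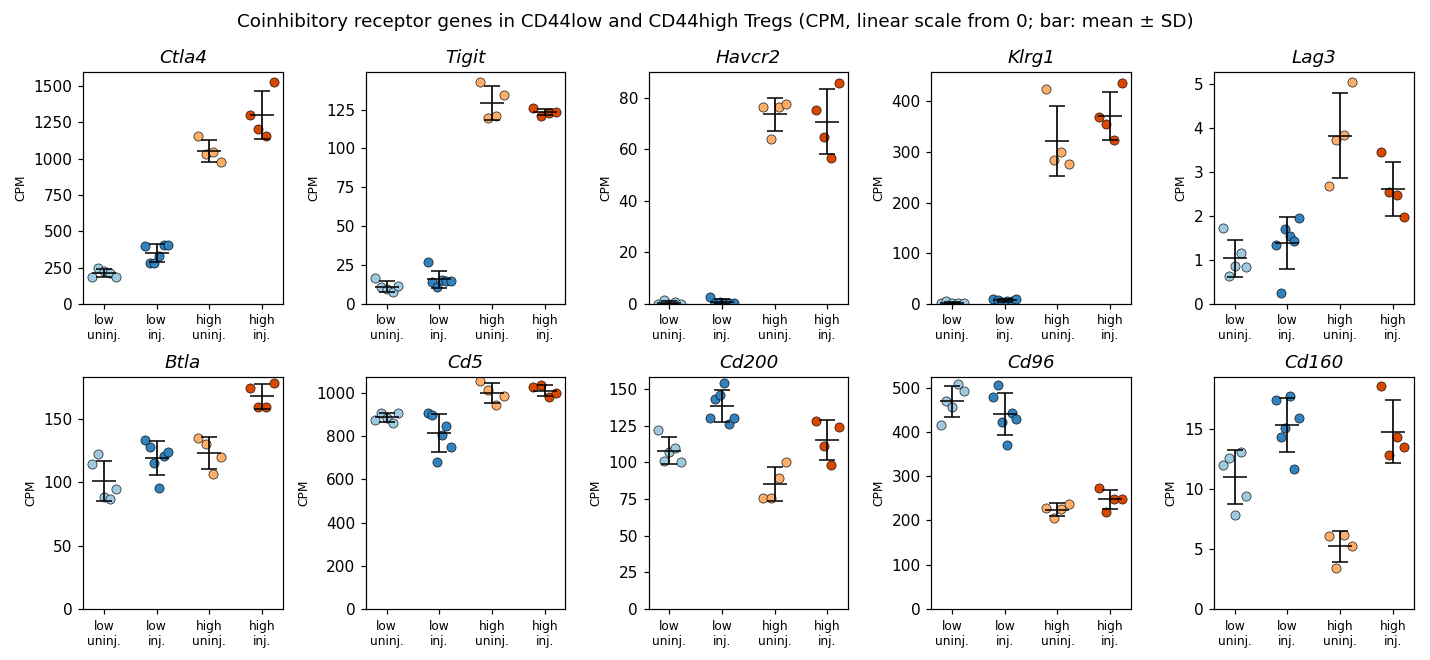
Each panel shows 1 gene, with CPM on a linear axis from 0 for every library (points) of CD44low and CD44high Tregs from uninjured and injured mice, and the mean ± SD of each group (black bars). Ctla4, Tigit, Havcr2 and Klrg1 stand apart by subset, with Klrg1 at 0.852 to 10.1 CPM in CD44low and 276 to 437 CPM in CD44high libraries, while Cd160 is lowest in CD44high libraries of uninjured mice.

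In injured mice the same comparison called 6 of the 10 genes higher in CD44high Tregs (Ctla4, Tigit, Havcr2, Klrg1, Btla and Cd5) and 1, Cd96, lower. Over all genes tested 20.1% were called higher and 17.2% lower. Libraries did not overlap for 8 of the 10 genes and for 24.8% of all genes tested, and the median log2 fold change was 0.71 over the 10 genes and 0.00 over all genes.

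Ctla4 had 1303, 1206, 1154 and 1530.2 CPM in the CD44high libraries of injured mice. Its CD44low libraries had a lowest of 282, a median of 363 and a highest of 406 CPM, and the log2 fold change was 1.89 ± 0.12 (SE, edgeR adjusted p = 7.64e-12). Tigit had 126, 121, 122 and 123 CPM in CD44high libraries and a lowest of 10.7, a median of 14.5 and a highest of 26.6 CPM in CD44low libraries, with a log2 fold change of 2.95 ± 0.18 (SE, edgeR adjusted p = 8.62e-12). Neither gene's groups overlapped. Havcr2 had 75.3, 64.8, 56.7 and 85.8 CPM in CD44high libraries against a lowest of 0.15, a median of 0.429 and a highest of 2.53 CPM in CD44low libraries, a log2 fold change of 6.43 ± 0.40 (SE) that rests on 32 counts in CD44low libraries, 17 of them in library 1 (edgeR adjusted p = 9.04e-12). It was 7.21 without that library and lay between 5.80 and 7.28 under the other settings tried. Klrg1 had 369, 355, 324 and 437 CPM in CD44high libraries and a lowest of 3.14, a median of 7.13 and a highest of 10.1 CPM in CD44low libraries, a log2 fold change of 5.68 ± 0.26 (SE, edgeR adjusted p = 9.15e-14). These 4 genes were far higher in every CD44high than in any CD44low library of injured mice. In injured mice 4 of the 10 myeloid markers (Lyz2, Xcr1, Siglech and Itgam, the last not called by DESeq2) and 3 of the 7 tested CD8 T and NK cell markers (Nkg7, Gzma and Klrb1c) were called higher in CD44high Tregs as well, and Prf1 lower, and the part of such cells was not tested.

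Btla had 175, 159, 159.6 and 178 CPM in CD44high libraries of injured mice and a lowest of 95.2, a median of 122 and a highest of 133 CPM in CD44low libraries, without overlap, and its log2 fold change was 0.49 ± 0.11 (SE, edgeR adjusted p = 0.00127). Cd5 had 1026, 1038, 980.2 and 998 CPM and a lowest of 681, a median of 826 and a highest of 906 CPM, and a log2 fold change of 0.31 ± 0.08 (SE, edgeR adjusted p = 0.00352). Cd96 had 273, 219, 249 and 249 CPM in CD44high libraries and a lowest of 369, a median of 435 and a highest of 506 CPM in CD44low libraries, and a log2 fold change of -0.83 ± 0.10 (SE, edgeR adjusted p = 2.08e-07). Every CD44low library lay above every CD44high library for Cd96, as in uninjured mice. The remaining 3 genes were not called. Lag3 had 3.45, 2.54, 2.48 and 1.96 CPM against a lowest of 0.249, a median of 1.49 and a highest of 1.95 CPM, a log2 fold change of 0.93 ± 0.42 (SE) with an interval of 0.07 to 1.79 (edgeR adjusted p = 0.0831). Cd200 had 128, 111, 98 and 124 CPM against a lowest of 126, a median of 137 and a highest of 154 CPM, with overlap and a log2 fold change of -0.26 ± 0.11 (SE, edgeR adjusted p = 0.0544, 0.0277 with DESeq2). Of 8 alternatives other than leaving out 1 library, 2 called Cd200 lower. With 1 library left out, 10 of 19 fits called it (edgeR adjusted p down to 0.0242). Cd160 had 18.6, 12.8, 14.3 and 13.5 CPM against a lowest of 11.7, a median of 15.5 and a highest of 17.8 CPM, a log2 fold change of -0.06 ± 0.19 (SE) with an interval of -0.46 to 0.35 (edgeR adjusted p = 0.848), so the subset difference seen in uninjured mice was not detectable in injured mice.

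**Figure D3:**
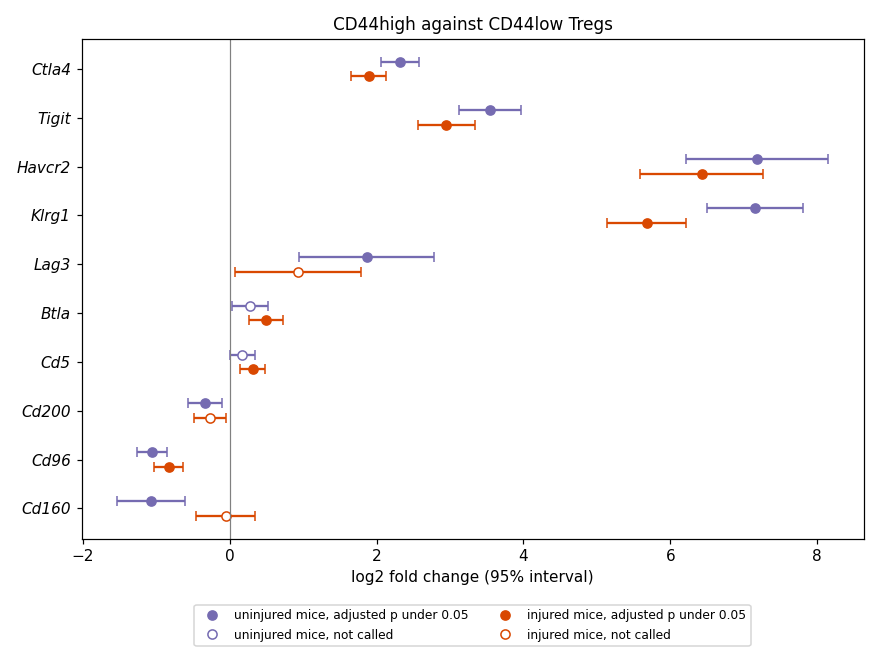
Points give the log2 fold change of each gene between CD44high and CD44low Tregs, in uninjured and in injured mice, with 95% intervals, and filled points mark an adjusted p under 0.05. Klrg1 stands at 7.15 in uninjured and 5.68 in injured mice, and Cd160 is the gene whose difference lies near 0 in injured mice.

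The next question was what injury changed within each subset. In CD44high Tregs, 2 of the 10 genes, Cd160 and Cd200, were higher 7 days after the burn, beside 1.06% of all genes tested that were called higher. Lower calls were made for 1.33% of all genes and for 0 of the 10, and DESeq2 also called 0 lower. Of the 10, 4 had an unadjusted p under 0.05, all of them higher after injury. The share of all genes under that unadjusted threshold was not counted, here or for later counts at it. Libraries did not overlap for 2 of the 10 genes, Cd160 and Btla, and for 13.3% of all genes. Cd160 rose from 5.23 ± 1.29 CPM (SD, n = 4) to 14.8 ± 2.6 CPM (SD, n = 4), a log2 fold change of 1.50 ± 0.23 (SE, edgeR adjusted p = 0.000429). Every injured library, at 18.6, 12.8, 14.3 and 13.5 CPM, lay above the highest uninjured one, and the counts behind the means were 497 and 134. Cd200 rose from 85.2 ± 11.8 CPM (SD, n = 4) to 115 ± 13.6 CPM (SD, n = 4), with overlap and a log2 fold change of 0.43 ± 0.12 (SE, edgeR adjusted p = 0.0483). That call was lost when any of 6 single libraries was left out, with adjusted p up to 0.166, and with no filter on low counts (edgeR adjusted p = 0.0561). A block on replicate numbers ended that call too (edgeR adjusted p = 0.0664). Btla stood at 123 ± 12.6 CPM (SD, n = 4) in uninjured mice and 168 ± 9.99 CPM (SD, n = 4) after injury, a log2 fold change of 0.45 ± 0.12 (SE) that was not called (edgeR adjusted p = 0.054) and was called by DESeq2 (adjusted p = 0.0187).

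The other genes of CD44high Tregs gave smaller or less certain differences. Ctla4 had a log2 fold change of 0.30 ± 0.13 (SE, edgeR adjusted p = 0.255). The intervals of Tigit (-0.47 to 0.32), Havcr2 (-0.71 to 0.59), Klrg1 (-0.28 to 0.70), Cd96 (-0.07 to 0.35) and Cd5 (-0.17 to 0.20) all included 0. That of Lag3 was the widest, from -1.46 to 0.35. Follicular T cells are known to carry BTLA and CD200, and a marker of these cells moved in the same libraries. Cxcr5, their chemokine receptor, rose from 28 ± 8.54 to 78.9 ± 16.8 CPM (SD, n = 4 each) in CD44high Tregs after injury (log2 fold change 1.50 ± 0.23 SE, edgeR adjusted p = 0.000402). It was the 1 of 4 tested follicular markers to be called, all 4 had an unadjusted p under 0.05 and a log2 fold change above 0 (median 0.83), and the 7 markers of the list summed to 244, 208, 199.7 and 231 CPM in uninjured and 386, 310.5, 323 and 347 CPM in injured libraries, with Il1r2 the most abundant and Sostdc1 at 0 in every uninjured library. Of the 6 B cell markers, Cd22 was called higher (1.72) and the other 5 were not called. Of the 7 tested CD8 T and NK cell markers, 0 were called higher and 1 lower. Of the 10 macrophage and dendritic cell markers, 0 were called. The part of these cells in the result was not tested.

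In CD44low Tregs, Klrg1, Ctla4 and Cd200 were higher after injury, 3 of the 10 genes beside 4.24% of all genes tested. Lower calls were made for 3.36% of all genes and for 0 of the 10, and DESeq2 also called 0 lower. Of the 10, 6 had an unadjusted p under 0.05, all of them higher after injury. That number has no share over all genes to stand beside, since the shares given are for adjusted p. Libraries did not overlap for 2 of the 10 genes, Ctla4 and Cd200, and for 4.68% of all genes. Ctla4 rose from 211 ± 26.5 CPM (SD, n = 5) to 350.1 ± 59.6 CPM (SD, n = 6), a log2 fold change of 0.73 ± 0.11 (SE, edgeR adjusted p = 0.000634). The lowest injured library had 282 CPM and the highest uninjured one 246 CPM. Klrg1 rose from 2.26 ± 1.77 CPM (SD, n = 5) to 7.2 ± 2.67 CPM (SD, n = 6), a 3.21-fold change (log2 fold change 1.68 ± 0.34 SE, edgeR adjusted p = 0.00531). The level reached was still 1.94% of the CD44high mean of injured mice, and the groups overlapped at the uninjured library 2, with 5.2 CPM. Cd200 rose from 108 ± 9.04 CPM (SD, n = 5) to 138 ± 11.1 CPM (SD, n = 6) (log2 fold change 0.36 ± 0.10 SE, edgeR adjusted p = 0.0329). That call was lost when uninjured library 2, uninjured library 5 or injured library 1_2 was left out, with adjusted p up to 0.0644. It was also lost with the compared groups alone (edgeR adjusted p = 0.0528) and with the injured libraries 1 and 1_2, and 5 and 5_2, summed (edgeR adjusted p = 0.0538). A block on replicate numbers ended the Cd200 call as well (edgeR adjusted p = 0.1005).

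Among the 7 genes not called, Tigit had a log2 fold change of 0.52 ± 0.19 (SE, edgeR adjusted p = 0.092) and was called by DESeq2 (adjusted p = 0.0463). Cd160 stood at 0.48 ± 0.19 (SE, edgeR adjusted p = 0.106) and Btla at 0.24 ± 0.11 (SE, edgeR adjusted p = 0.158). Intervals of the others included 0, with -0.27 to 0.09 for Cd96 and -0.28 to 0.03 for Cd5. Havcr2 and Lag3, with 32 and 53 counts in all injured CD44low libraries, had intervals of -0.78 to 2.16 and -0.52 to 1.28. Of the macrophage and dendritic cell markers, Lyz2 and Itgam were called higher in CD44low Tregs after injury (1.27 and 3.87), and Klrb1c was the 1 of 7 CD8 and NK cell markers to be called higher (3.00). The 7 follicular markers summed to 81.7 ± 9.19 CPM (SD, n = 5) in uninjured and 102 ± 16.5 CPM (SD, n = 6) in injured CD44low libraries, and of the 4 tested Il1r2 was called higher (0.61). The part of these cells in the results was not tested.

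**Figure D4:**
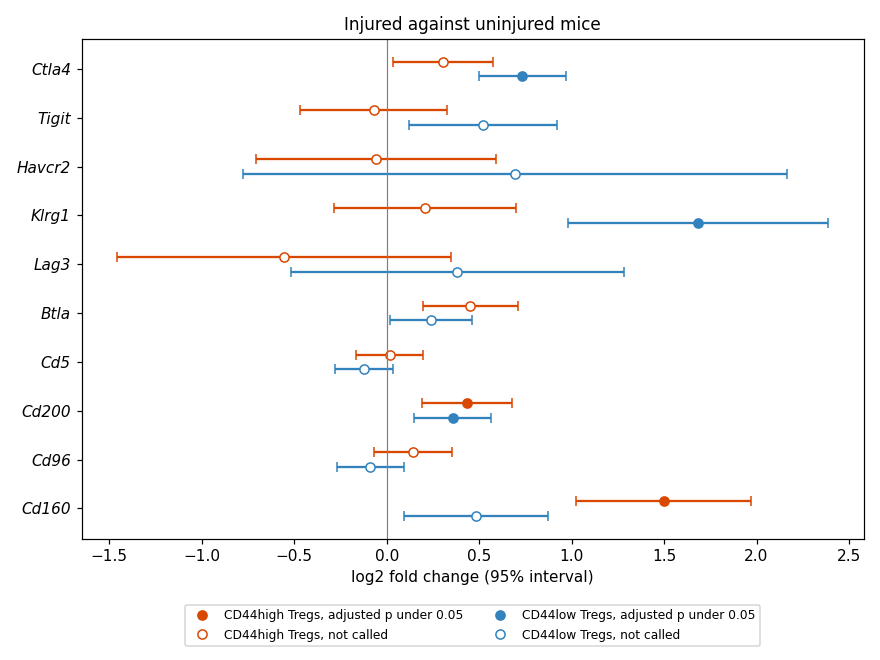
Points give the log2 fold change of each gene between injured and uninjured mice in CD44high and in CD44low Tregs, with 95% intervals, and filled points mark an adjusted p under 0.05. Cd160 and Cd200 are filled for CD44high Tregs and Ctla4, Klrg1 and Cd200 for CD44low Tregs.

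Whether injury changed a gene more in one subset than in the other was tested directly, as the effect in CD44high minus that in CD44low Tregs. None of the 10 genes passed (0 by edgeR's quasi-likelihood test, 0 by DESeq2), beside 0.192% of all genes tested called higher and 0.454% called lower. An unadjusted p under 0.05 was found for 4 of the 10, and the share of all genes at that threshold was not counted. Klrg1 had a difference of -1.47 ± 0.42 (SE) (unadjusted p = 0.0018, edgeR adjusted p = 0.115). Cd160 had a difference of 1.01 ± 0.29 (SE) in the other direction (unadjusted p = 0.00216, edgeR adjusted p = 0.125). Ctla4 (-0.43 ± 0.17 SE, edgeR adjusted p = 0.336) and Tigit (-0.59 ± 0.27 SE, edgeR adjusted p = 0.426) leaned the same way as Klrg1. The call of Klrg1 was made when uninjured CD44low library 2 (adjusted p = 0.0152) or injured CD44low library 5 (adjusted p = 0.0425) was left out. So Klrg1 and Ctla4 were called in CD44low and not in CD44high Tregs, and Cd160 in CD44high and not in CD44low Tregs, but a difference between the subsets was not shown for any of them.

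Related genes were described by lists written by role. Ligands and counter-receptors of the 10 receptors, some of which T cells make themselves, were tested for 13 genes. Over all genes tested, 24.7% were called higher and 21.3% lower in CD44high Tregs of uninjured mice, and 20.1% and 17.2% in injured mice. After injury 1.06% were called higher and 1.33% lower in CD44high Tregs, and 4.24% and 3.36% in CD44low Tregs. The counts of each list stand beside these shares. In CD44high Tregs of uninjured mice, 5 of the 13 ligand genes (38.5%) were higher and 3 (23.1%) lower, with a median log2 fold change of 0.19. Lgals3, a galectin that binds LAG3, had 163 ± 4.85 CPM (SD, n = 4) in CD44high and 1.64 ± 0.97 CPM (SD, n = 5) in CD44low Tregs (6.59 ± 0.26 SE on the log2 scale). Cd200r1, the receptor for CD200, had 122 ± 7.52 and 20.8 ± 2.97 CPM (2.56 ± 0.13 SE), opposite in direction to Cd200 itself. Hmgb1, a ligand of TIM-3, had a log2 fold change of 0.85 ± 0.11 (SE). Pvr, the ligand that TIGIT and CD96 share, was lower in CD44high Tregs (-1.29 ± 0.19 SE). In injured mice 5 were higher and 1 lower. After injury Lgals3 rose (1.86 ± 0.28 SE, edgeR adjusted p = 0.000402) and Pvr fell (-0.78 ± 0.17 SE, edgeR adjusted p = 0.00773) in CD44low Tregs by edgeR's test, while DESeq2 called Hmgb1 and Tnfrsf14 there as well. In CD44high Tregs edgeR called 0 of the 13 after injury, and DESeq2 called Lgals3. Its edgeR log2 fold change there was below 0 (-0.55 ± 0.19 SE, edgeR adjusted p = 0.154). For Lgals3 the effect of injury differed between the subsets (-2.40 ± 0.34 SE, edgeR adjusted p = 0.00054).

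Among the 14 costimulatory receptor and partner genes, every edgeR call in the 4 comparisons was higher. In CD44high Tregs of uninjured mice 8 were higher, with a median log2 fold change of 0.44, and in injured mice 9. Icos, a relative of CD28, had 1835 ± 173 CPM (SD, n = 4) in CD44high and 133 ± 18.7 CPM (SD, n = 5) in CD44low Tregs of uninjured mice (3.78 ± 0.15 SE). Tnfrsf4, which encodes OX40 (1.36 ± 0.11 SE), Tnfrsf9, which encodes 4-1BB (1.21 ± 0.12 SE), and Slamf6, a homotypic adhesion receptor (1.01 ± 0.10 SE), were higher too. After injury 5 of the 14 rose in CD44low Tregs, with Icos at 0.86 ± 0.13 (SE), Tnfrsf9 at 0.48 ± 0.11 (SE) and Tnfrsf18, which encodes GITR, at 0.42 ± 0.10 (SE). In CD44high Tregs Tnfrsf9 rose after injury (0.61 ± 0.12 SE, edgeR adjusted p = 0.00608) and edgeR called none of the other 13, while DESeq2 called Tnfrsf4 as well.

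Of 16 further inhibitory receptor genes tested, 8 were higher and 2 lower in CD44high Tregs of uninjured mice (median 0.62), and 7 were higher and 3 lower in injured mice. Pecam1, an adhesion molecule with inhibitory motifs, was lower (-1.73 ± 0.14 SE). Adora2a, an adenosine receptor (0.79 ± 0.15 SE), Cd101 (0.63 ± 0.14 SE) and Sirpa (2.65 ± 0.54 SE) were higher, the last being a receptor of myeloid cells with 10.6 ± 3.34 CPM (SD, n = 4) in CD44high Tregs. After injury in CD44high Tregs, Cd22 (1.72 ± 0.31 SE) and Pecam1 (0.69 ± 0.14 SE) rose and Cd101 fell (-0.69 ± 0.14 SE). In CD44low Tregs edgeR called none of the 16 after injury, and 5 had an unadjusted p under 0.05, while DESeq2 called 4 of them, Cd22, Sit1, Klrc1 and Sirpa, each with a log2 fold change above 0 in edgeR.

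A further list held 19 genes of signalling inside the cell, some of which carry and some of which oppose inhibitory signals. Of these, 6 (31.6%) were higher and 4 (21.1%) lower in CD44high Tregs of uninjured mice, near the shares over all genes (median -0.17). In injured mice 5 were higher and 5 lower. Ubash3b, a phosphatase of the STS family (1.54 ± 0.11 SE), Dok2, an adaptor (0.74 ± 0.12 SE), and Ptpn22, a tyrosine phosphatase (0.62 ± 0.10 SE), were higher, and Dgka, a diacylglycerol kinase, was lower (-1.07 ± 0.10 SE). After injury Sh2d1a, the adaptor SAP (1.12 ± 0.18 SE), and Ptpn6, which encodes the phosphatase SHP-1 (0.51 ± 0.12 SE), rose in CD44high Tregs, where Ubash3b fell (-0.58 ± 0.11 SE). In CD44low Tregs 3 genes rose after injury, Ptpn22 (0.52 ± 0.09 SE), Dok2 (0.58 ± 0.11 SE) and Ptpn6 (0.43 ± 0.10 SE).

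Of 14 genes for the transport of CTLA4 and the shedding of receptors, 8 were higher and 1 lower in CD44high Tregs of uninjured mice (median 0.32), and 4 higher and 1 lower in injured mice. Pld1, a phospholipase, had 4.62 ± 1.07 CPM (SD, n = 4) in CD44high and 0.0963 ± 0.149 CPM (SD, n = 5) in CD44low Tregs (5.39 ± 0.90 SE). That CD44low mean lies below the level of 3 counts in these libraries (0.426 to 0.506 CPM), so the fold change rests on few counts. Rab11a, a GTPase of recycling endosomes (0.59 ± 0.10 SE), Def6, an exchange factor (0.37 ± 0.09 SE), and Ap2m1, a subunit of the clathrin adaptor that retrieves CTLA4 from the surface (0.44 ± 0.11 SE), were higher as well. After injury Trat1, the adaptor TRIM (0.41 ± 0.11 SE), and Rab8a, a GTPase of surface delivery (0.34 ± 0.10 SE), rose in CD44low Tregs.

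Of 17 genes of transcription factors known to act on coinhibitory receptor genes, 9 were higher and 4 lower in CD44high Tregs of uninjured mice (median 0.42), and 9 and 3 in injured mice. Prdm1, which encodes BLIMP-1 (3.58 ± 0.19 SE), Nfil3 (2.46 ± 0.18 SE) and Batf (2.00 ± 0.15 SE) were higher. Tcf7, which encodes the resting T cell factor TCF-1, was lower (-1.91 ± 0.09 SE). After injury in CD44high Tregs Tcf7 (0.60 ± 0.09 SE) and Id3 (0.70 ± 0.18 SE) rose and Tbx21, which encodes T-bet, fell (-1.20 ± 0.20 SE). In CD44low Tregs 3 rose and 2 fell, with Tox2 at 1.16 ± 0.23 (SE), Batf at 0.62 ± 0.14 (SE) and Foxo1, a factor of resting T cells, at -0.47 ± 0.08 (SE). For Tcf7 the effect of injury differed between the subsets (0.70 ± 0.12 SE, edgeR adjusted p = 0.00321).

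**Figure D5:**
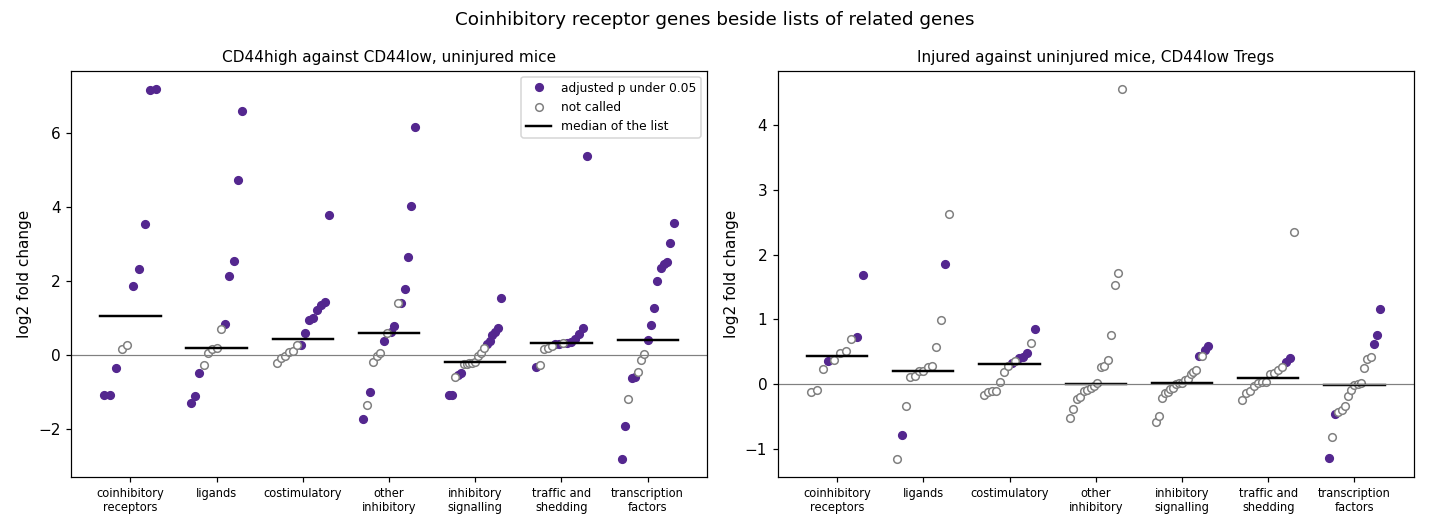
Points give the log2 fold change of each tested gene by list, for CD44high against CD44low Tregs of uninjured mice and for injury in CD44low Tregs, with a line at the median of each list and filled points at an adjusted p under 0.05. The medians for the first comparison are 1.07 for the 10 coinhibitory receptors, 0.19 for ligands and 0.44 for costimulatory genes.

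For each of the 10 receptors, the genes of most similar pattern were sought among the other genes tested, as the smallest root mean square difference between log2 CPM values over the 19 libraries, each gene centred on its own mean. Tigit was closest to Icos (0.293) and Glrx (0.325), against a spread of Tigit itself of 1.69 (SD over libraries, log2). Ctla4, with an SD of 1.11, was closest to Rilpl2 (0.262). For Havcr2 the closest were Gzmb, which encodes granzyme B (0.741), and Ccr3, a chemokine receptor gene (0.985), and for Klrg1 Ccr3 (0.784) and Hmmr (0.859), against SDs of 3.48 and 3.35. Cd96, with an SD of 0.495, was closest to Dgka (0.125) and Pip4k2a (0.138). The difference to the nearest gene was a large part of the gene's own SD for Lag3 (1700066M21Rik, 0.376 of 0.827), Cd160 (Gimap4, 0.316 of 0.654), Btla (Cd28, 0.162 of 0.306), Cd200 (Serf2, 0.14 of 0.293) and Cd5 (Hspa4, 0.1 of 0.165).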

How the data were processed

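The authors deposited raw counts per gene and library, made with STAR through the VIPER workflow without normalization. The submitters' processing notes list STAR 2.5, bcl2fastq 2.18 and the builds mm9 and mm10. RNA had been made into cDNA with SMART-Seq v4 reagents, fragmented to about 150 bp and built into Swift 2S libraries. Without molecular identifiers, limits from counts cover counting error only. All 19 columns were used, and 8091 of 24982 genes had no count. The counts were analysed here in R 4.3.3 with edgeR 4.0.16 (low counts filtered at a minimum of 10, TMM factors, 1 mean per group over all 19 libraries, no covariate, quasi-likelihood test, two-sided, Benjamini-Hochberg adjustment over 11464 genes, called at an adjusted p under 0.05), and with DESeq2 1.42.0 as an alternative. Positions and exon lengths came from GENCODE vM21 and promoters from RefSeq. Figures used Python 3.11.15 and matplotlib 3.10.9. The model was tested on simulated data with 200 changed genes, where it recovered 61.8% of changes of 1 and 89.6% of changes of 2 on the log2 scale for CD44high against CD44low Tregs of uninjured mice, among 11280 genes, and 49.2% and 87.0% for the difference between subsets in the effect of injury, among 11295 genes.

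The receptor genes and the lists were chosen with earlier results of these data known. Related genes were named by rule, as the 4 of smallest p called between subsets of uninjured mice and the 3 of smallest p called for injury in each subset, per list. Alternatives were DESeq2, RLE factors, no filter, compared groups alone, replicate blocks, second-number libraries dropped or summed with their first, stricter thresholds and each library left out in turn.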

Additional observations from a re-analysis of the deposited data

Results flagged for a closer look

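Outlying libraries were sought with Dixon's test at 95% in the 40 combinations of 10 genes and 4 groups, and chance flags about 1 in 20 groups. It marked 5 values. In CD44low Tregs of injured mice, library 2 had 0.249 CPM of Lag3, from 2 counts, with the other 5 libraries between 1.34 and 1.95 CPM. Library 1 of the same group had 26.6 CPM of Tigit, with the others between 10.7 and 15.2 CPM, and 2.53 CPM of Havcr2, from 17 counts, with the others between 0.150 and 0.856 CPM. In CD44high Tregs of uninjured mice, library 3 had 63.9 CPM of Havcr2, with the others between 76.5 and 77.4 CPM, and library 2 had 425 CPM of Klrg1, with the others between 276 and 300.2 CPM. Library 1 of injured CD44low Tregs was thus marked for 2 genes, and the cause was not tested.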

How the results depend on the processing

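Of the values that the 10 genes took under alternatives other than leaving out 1 library, 346 kept their direction and their side of the threshold, 13 became called, 5 lost their call and 4 reversed. The reversed values all lay near 0 or rested on few counts, as follows. For Cd160 between subsets of injured mice the log2 fold change was 0.12 with replicate numbers as a block and 0.12 with a block within injury status, and it lay between -0.21 and 0.010 with 1 library left out. For Cd96 in CD44low Tregs after injury it was 0.0015 without the 3 libraries with a second number, and for the Havcr2 interaction of subset and injury 0.36 with a replicate block within injury status. With 1 library left out, Havcr2 ranged from -0.17 to 0.034 for injury in CD44high Tregs, from -0.091 to 1.76 for injury in CD44low Tregs (lowest without injured library 1) and from -1.81 to 0.041 for the interaction. Cd5 ranged from -0.010 to 0.055 for injury in CD44high Tregs. For the other named genes, 1450 values under all alternatives kept their direction and their side of the threshold and 39 lost their call.

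Among the 10 genes, DESeq2 and RLE factors each called 2 lower in CD44high Tregs of injured mice, and leaving out 1 library gave 1 to 2. A 2-fold change with an adjusted p under 0.05 left 0 lower there and 1 higher after injury in either subset. A p under 1e-06 with a 2-fold change left 1 lower in CD44high Tregs of uninjured mice and 0 in injured mice, and 0 higher after injury in either subset. In CD44high Tregs after injury, no filter or a replicate block left 1 higher, and leaving out 1 library gave 1 to 3. In CD44low Tregs leaving out 1 library gave 2 to 4, and for the interaction 0 to 1 lower.

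Over all genes, 273 were called for injury in CD44high Tregs, 476 with DESeq2, 601 with the compared groups alone, 581 without the 3 libraries with a second number, 476 with those of equal number summed, and 152 to 343 with 1 library left out. In CD44low Tregs 871 were called, 1451 with DESeq2, 463 with the compared groups alone, 440 with the replicate block, 1748 without the 3 libraries, and 510 to 1893 with 1 left out, the highest without injured library 5_2. For the interaction 74 were called, 217 with DESeq2, 35 with a replicate block within injury status, 314 without the 3 libraries, and 43 to 110 with 1 left out. Equal numbers were not taken to pair the libraries, since not every same-numbered pair deviated together with r (across genes) over 0.1. The r was -0.00685 to 0.119 in uninjured mice (over 0.1 in 1 of 4 pairs, and in 0 of 16 of unequal number, -0.0798 to 0.0395) and -0.0537 to 0.167 in injured mice (3 of 4, and 5 of 20 of unequal number, -0.452 to 0.410). The block on replicate numbers called Lag3 between subsets of injured mice (edgeR adjusted p = 0.0478) and did not call Cd200 for injury in CD44high (0.0664) or CD44low Tregs (0.1005). The block within injury status called Btla between subsets of uninjured mice (0.0310), and the blocks changed no other call of the 10 genes. Depth limits Lag3 in all groups and Havcr2 in CD44low Tregs.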
